A study of Arabidopsis thaliana with 12 samples.

Results

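ACT12, PLIM2a and TUA1 are Arabidopsis thaliana genes of the actin and microtubule cytoskeleton that are known for their expression in pollen. They were taken as the probe sets whose only gene in the probe annotation given with the series is one of these names, which gave 3 probe sets among 22746 that are not controls. ACT12 (AT3G46520) was read by probe set 252531_at, PLIM2a (AT2G45800) by 266918_at and TUA1 (AT1G64740) by 262885_at, so each gene had a single probe set. Actin and tubulin genes are close copies of each other, and how far a probe set also reads its relatives was not tested.

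Actin filaments and microtubules are polymers of actin and of paired alpha and beta tubulin. In pollen, actin filaments carry organelles and vesicles through the vegetative cell and the growing pollen tube, while microtubules build the spindle and phragmoplast of the pollen divisions and are found in the generative and vegetative cells. ACT12 encodes an actin isovariant of the reproductive class, PLIM2a a LIM domain protein that binds and bundles actin filaments, and TUA1 an alpha tubulin.

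RNA from anthers with their filaments was hybridised to 12 Affymetrix ATH1 arrays, a platform of short oligonucleotide probes grouped into probe sets. The tested line was ms35, labelled a gene knock-out in the Ler-0 background; ms35 anthers lack the secondary thickening of the endothecium that depends on the transcription factor MYB26, and do not open. The control was labelled wild type (WT below); its source is named Glabra with stock code N64, whereas its array titles name Ler, so the labels do not settle its background. The 6 groups were ms35 and WT at labelled pollen mitosis I (PMI), ms35 and WT at the labelled bicellular stage, and ms35 and WT at labelled pollen mitosis II (PMII), with 2 arrays each. The labels do not say whether the 2 arrays of a group came from separate plants, so the variation within a group may be technical. The p-values below rest on this variation, pooled over the 6 groups and moderated toward that of probe sets of like intensity. The spread they use can therefore be smaller or larger than a gene's own replicates showed. The labels also do not give the age of the plants or the number pooled.

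The labelled stages did not follow the usual order of marker genes. MGH3, a histone of the sperm cell lineage, had a signal of 303 to 382 in ms35 and 496 to 713 in WT at labelled PMI, 156 to 274 in ms35 and 78.6 to 173 in WT at the bicellular stage, and 20.4 to 81.5 in ms35 and 19.1 to 22.0 in WT at labelled PMII. The 5 late pollen markers with a probe set, of 15 listed, summed to 568 to 665 in ms35 and 671 to 686 in WT at labelled PMI, to 344 to 502 in ms35 and 205 to 341 in WT at the bicellular stage, and to 127 to 199 in ms35 and 125 to 144 in WT at labelled PMII. The 2 tapetum genes with a probe set of 14 listed, AMS and SHT, known from the tapetum that nourishes young pollen and breaks down as it matures, ran the other way, with sums of 57.9 to 85.3 in ms35 and 24.9 to 51.6 in WT at labelled PMI, 571 to 1471 in ms35 and 1210 to 2045 in WT at the bicellular stage, and 2871 to 5483 in ms35 and 3275 to 3538 in WT at labelled PMII. At the bicellular stage and PMII these sums were mostly SHT. AMS alone had mean signals of 39.1 in ms35 and 18.4 in WT at PMI, and of 96.8 and 97.7 at PMII. Both genes were called higher at PMII than at PMI in WT, where 17% of all tested probe sets were. In ms35 only 1 of the 2 was, against 11.7% of all tested probe sets. The array titles carry the numbers 3 to 5 at labelled PMI, 6 to 7 at the bicellular stage and 8 to 10 at labelled PMII, and the labels do not say what these count. Stage names below are therefore those of the labels, and the order of the labels is not taken as an order in time. Between stages, a fall or rise below means a signal lower or higher than at labelled PMI. A step means a pair of labelled stages, and none of these words stands for a course in time.

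**Figure D1:**
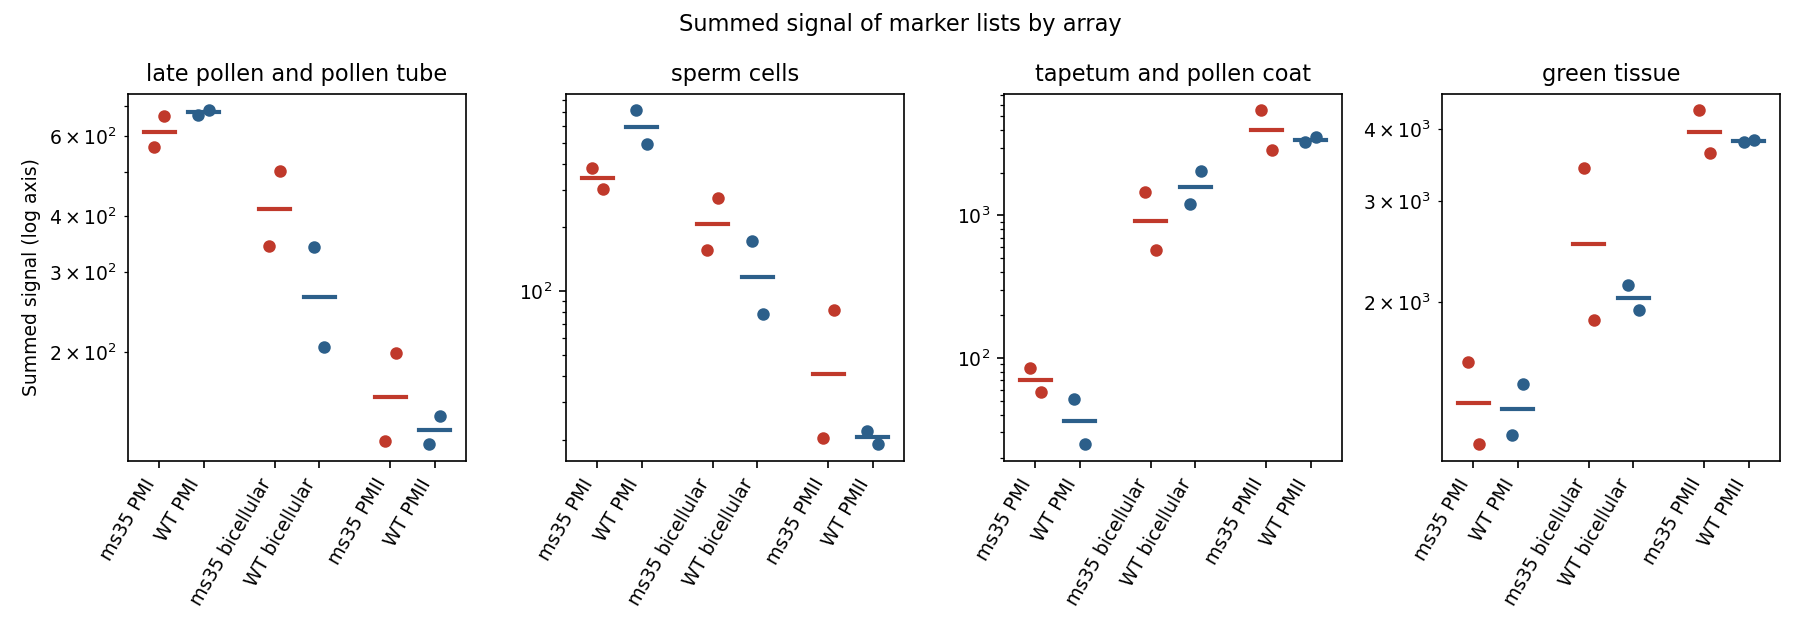
Summed signal of 4 marker lists on each array (log axes that start above 0 and differ between panels), by genotype and labelled stage. Points are arrays, bars the geometric mean of the 2 arrays, red ms35 and blue WT. The late pollen and sperm cell sums are highest in the labelled PMI groups, and the tapetum and green tissue sums are highest in the labelled PMII groups. The sperm cell panel is MGH3 alone, the only gene of that list with a probe set.

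Values are the deposited signal of a probe set, an intensity on a linear scale. Arrays of a group correlated over probe sets with r between 0.899 and 0.937. GAPDH control signal at the 3' end over that at the 5' end, which increases as RNA degrades, was lowest in ms35 PMI replicate 1 (1.29). The 3 highest ratios were those of ms35 PMI replicate 2 (2.11), ms35 bicellular replicate 2 (2.37) and WT PMII replicate 2 (2.86). Probe sets were tested with limma on log2(signal + 2.23) if at least 2 arrays exceeded 25.5, the low-signal limit, which kept 16464. A difference counted as called at a Benjamini-Hochberg adjusted p under 0.05 over all of these. The data come from whole anthers, so fewer pollen cells and less RNA per cell cannot be told apart in any value below.

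In each genotype, the mean signal of each of the 3 genes was highest at labelled PMI. The fall was called in WT for all 3 between PMI and both other stages, and in ms35 for ACT12 and PLIM2a between PMI and PMII and for PLIM2a between PMI and the bicellular stage. Of all tested probe sets, 29% were called in either direction between PMI and PMII in WT and 21.3% in ms35. Between PMI and the bicellular stage 18.1% were called in WT and 2.64% in ms35. No gene of the 3 passed the test between ms35 and WT, on average or at any stage. That test called 5.27% of tested probe sets on average, 2.03% at PMI, 1.77% at the bicellular stage and 0.948% at PMII.

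ACT12, the reproductive actin, had a signal in ms35 of 214 and 147 at labelled PMI, 96.0 and 148 at the bicellular stage and 60.5 and 96.5 at PMII. In WT it had 264 and 203 at PMI, 99.1 and 80.5 at the bicellular stage and 44.8 and 78.3 at PMII. Its signals lay above the limit on all 12 arrays and spanned 5.89-fold, from WT PMII replicate 1 to WT PMI replicate 1. In WT both PMI arrays lay above all arrays of the other stages. In ms35 the PMI and PMII arrays did not overlap, and the bicellular arrays overlapped with both, reaching 148 in replicate 2.

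By mean signal the groups stood in the order WT PMI (233 ± 43.4, SD, n = 2), ms35 PMI (181 ± 47.3), ms35 bicellular (122 ± 36.5), WT bicellular (89.8 ± 13.2), ms35 PMII (78.5 ± 25.4) and WT PMII (61.5 ± 23.7). Each group in this order overlapped with the next, so no neighbouring pair differed beyond its spread.

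PLIM2a, the LIM domain actin bundler, had signals from 1.23 to 667, the highest being 26.1-fold over the low-signal limit. In ms35 its signal was 55.7 and 267 at labelled PMI, 1.23 and 17.3 at the bicellular stage and 8.73 and 2.73 at PMII. In WT it was 391 and 667 at PMI, 8.91 and 13.4 at the bicellular stage and 14.5 and 65.0 at PMII. Only 5 of 12 arrays exceeded the low-signal limit: the 4 PMI arrays and WT PMII replicate 2. The probe set thus passed the filter through the groups in which it was high, and its values elsewhere are near background. Its log2 differences from PMI therefore have no fixed size. Bounds against the limit are given where both arrays of the other group lay under it. In both genotypes every PMI array lay above every array of the bicellular stage, and no PMII array reached the WT PMI arrays; WT PMII replicate 2 lay between the 2 ms35 PMI arrays.

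The mean signals of PLIM2a were ordered WT PMI (529 ± 195, SD, n = 2), ms35 PMI (161 ± 149), WT PMII (39.8 ± 35.7), WT bicellular (11.2 ± 3.19), ms35 bicellular (9.24 ± 11.3) and ms35 PMII (5.73 ± 4.25). WT PMI did not overlap with ms35 PMI, as was the case for 45.3% of tested probe sets, and ms35 PMI overlapped with WT PMII. The last 3 groups lay under the limit on every array, as did WT PMII replicate 1, so no order is read among them. The SD of its log2 values within groups was 1.20, at percentile 97.7 of all tested probe sets, against 0.40 for ACT12 (percentile 61.5) and 0.43 for TUA1 (percentile 65.3). The 2 arrays of each of the ms35 PMI, ms35 bicellular, ms35 PMII and WT PMII groups thus differed severalfold for PLIM2a. With 2 arrays a group, the SE of a difference equals the spread the model uses, 0.91 for PLIM2a after moderation. That is smaller than its own 1.20, and the same held for ACT12 and TUA1.

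TUA1, the alpha tubulin, had a signal in ms35 of 135 and 243 at labelled PMI, 112 and 66.3 at the bicellular stage and 87.8 and 98.1 at PMII. In WT it had 255 and 413 at PMI, 107 and 115 at the bicellular stage and 122 and 75.3 at PMII. All 12 arrays exceeded the limit, and the signals spanned 6.23-fold. In both genotypes both PMI arrays lay above all arrays of the other stages, and the bicellular and PMII arrays overlapped.

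The mean signals of TUA1 were ordered WT PMI (334 ± 112, SD, n = 2), ms35 PMI (189 ± 76.8), WT bicellular (111 ± 5.01), WT PMII (98.7 ± 33.2), ms35 PMII (93.0 ± 7.24) and ms35 bicellular (89.0 ± 32.1). The 2 PMI groups did not overlap with each other, as was the case for 45.3% of tested probe sets. Nor did ms35 PMI overlap with WT bicellular, while the last 4 groups each overlapped with the next.

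**Figure D2:**
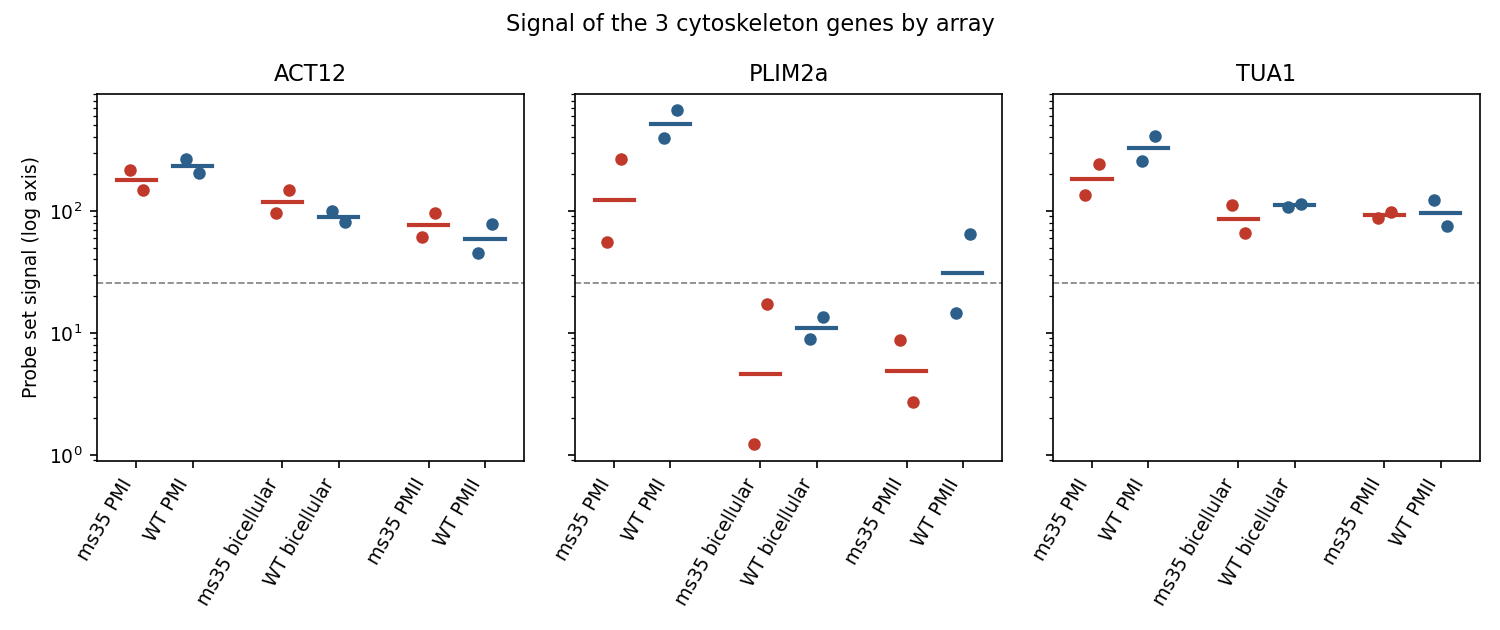
Probe set signal (log axis) of ACT12, PLIM2a and TUA1 on each of the 12 arrays, by genotype and labelled stage. Points are arrays, bars the geometric mean of the 2 arrays, red ms35 and blue WT, and the dashed line is the low-signal limit of 25.5. In each genotype the mean of each gene is highest at labelled PMI, and PLIM2a lies under the limit on 7 of the 12 arrays.

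At labelled PMII, all 3 genes were called lower than at labelled PMI in WT, as were ACT12 and PLIM2a in ms35. In WT, ACT12 fell by 1.92 ± 0.34 (log2 difference ± SE; limma adjusted p = 0.00155), PLIM2a fell by 3.94 ± 0.91 (adjusted p = 0.00703) and TUA1 fell by 1.73 ± 0.35 (adjusted p = 0.00354). The PLIM2a difference has no fixed size, as WT PMII replicate 1 (14.5) lay under the low-signal limit and replicate 2 (65.0) above it. With single arrays left out it ran from -4.94 to -2.93. Of all tested probe sets 11.9% were called lower in this comparison, 17% higher and 29% in either direction. The 2 groups did not overlap for any of the 3 genes, as was the case for 66% of tested probe sets. The ACT12 and TUA1 calls held under all 23 alternative settings, with adjusted p between 0.000814 and 0.0189 for ACT12 and between 0.00192 and 0.0425 for TUA1. The PLIM2a call was lost without WT PMI replicate 2 (adjusted p = 0.0595) and without WT PMII replicate 1 (adjusted p = 0.0704).

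In ms35, ACT12 was lower at labelled PMII than at PMI by 1.19 ± 0.34 (limma adjusted p = 0.0262), and PLIM2a by 4.08 ± 0.91 (adjusted p = 0.00792). TUA1 had a log2 difference of -0.95 ± 0.35 (adjusted p = 0.0774). Here 9.62% of tested probe sets were called lower, 11.7% higher and 21.3% in either direction, and 62.3% did not overlap. Against the low-signal limit in place of the dim PMII arrays, the geometric mean of the PLIM2a signals at ms35 PMI was at least 4.78-fold higher; replicate 1 alone lay 2.18-fold over the limit and replicate 2 alone 10.5-fold. The ACT12 call was lost without ms35 PMI replicate 1 (adjusted p = 0.161), without ms35 PMII replicate 1 (adjusted p = 0.209) and without the intensity trend of the variances (adjusted p = 0.062). The PLIM2a call was lost without ms35 PMI replicate 2 (adjusted p = 0.0904) and without ms35 PMII replicate 2 (adjusted p = 0.0516), and TUA1 passed without ms35 PMI replicate 1 (adjusted p = 0.0415).

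In WT all 3 genes were lower at the bicellular stage than at labelled PMI. PLIM2a was lower by 5.28 ± 0.91 (limma adjusted p = 0.00281), TUA1 by 1.53 ± 0.35 (adjusted p = 0.0117) and ACT12 by 1.35 ± 0.34 (adjusted p = 0.0173). Both bicellular arrays of PLIM2a lay under the low-signal limit, so its bound below is read in place of that size. Of tested probe sets 7.29% were called lower in this step, 10.8% higher and 18.1% in either direction, and 62.3% did not overlap. Against the low-signal limit, the geometric mean of the PLIM2a signals at WT PMI was at least 20.03-fold higher than at the bicellular stage. Replicate 1 alone lay 15.3-fold over the limit and replicate 2 alone 26.1-fold. The PLIM2a call held under all 23 settings. The probe set passed the filter through the groups in which it was high. Its calls between PMI and the other stages are therefore not independent of that filter. The ACT12 call was lost without WT PMI replicate 1 (adjusted p = 0.112), without WT PMI replicate 2 (adjusted p = 0.05003, just over the threshold) and without WT bicellular replicate 2 (adjusted p = 0.121). The TUA1 call was lost without WT PMI replicate 2 (adjusted p = 0.109), WT bicellular replicate 1 (adjusted p = 0.0604) or WT bicellular replicate 2 (adjusted p = 0.0642).

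In ms35 the same step was called for PLIM2a alone, which fell by 3.93 ± 0.91 (limma adjusted p = 0.0443), with the same bound against the limit as at PMII, where 1.01% of tested probe sets were called lower and 2.64% in either direction. This call missed the threshold under 11 of 23 settings, with adjusted p up to 0.321 without ms35 bicellular replicate 1. The log2 difference was -0.57 ± 0.34 for ACT12 (adjusted p = 0.399) and -1.05 ± 0.35 for TUA1 (adjusted p = 0.136). None of the 3 genes passed between labelled PMII and the bicellular stage, where 0.413% of tested probe sets were called in ms35 and 1.55% in WT. In ms35 these log2 differences were -0.62 ± 0.34 for ACT12 (adjusted p = 0.397), -0.16 ± 0.91 for PLIM2a (adjusted p = 0.96) and 0.10 ± 0.35 for TUA1 (adjusted p = 0.928). In WT they were -0.57 ± 0.34 (adjusted p = 0.461), 1.35 ± 0.91 (adjusted p = 0.531) and -0.20 ± 0.35 (adjusted p = 0.851) in the same order of genes. The 3 stage differences within a genotype share arrays, so they are not independent of each other.

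The median log2 difference of all tested probe sets was 0.19 for PMII minus PMI in WT, 0.14 for the bicellular stage minus PMI in WT, 0.09 for PMII minus PMI in ms35 and 0.06 for the bicellular stage minus PMI in ms35. With each array centred on its median, the share of higher calls among all calls was 45.3% in place of 58.8% for PMII minus PMI in WT, 47.8% in place of 59.7% for the bicellular stage minus PMI in WT 49.6% in place of 61.8% for that step in ms35 and 46.1% in place of 54.8% for PMII minus PMI in ms35. Centred in this way, PMII minus PMI in WT was -2.09 for ACT12, -4.10 for PLIM2a and -1.90 for TUA1. The late pollen marker sum, given above, was highest in the same groups as the 3 genes. The green tissue sum of 3 markers, of 6 listed, was 3637 to 4323 in ms35 PMII and 3811 to 3835 in WT PMII against 1129 to 1568 in ms35 PMI and 1172 to 1435 in WT PMI, and the 2 carpel and ovule markers of 4 listed summed to between 46.9 and 111 in ms35 and between 49.3 and 102 in WT over all stages. The part of these cell types in the stage differences was not tested. Among the late pollen markers, ANX1, a receptor kinase of the pollen tube, was near background outside PMI, with mean signals of 1.46 in ms35 and 2.37 in WT at PMII.

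Between ms35 and WT, none of the 3 genes passed. Averaged over the stages, PLIM2a had a log2 difference of -1.64 ± 0.52 (limma adjusted p = 0.106), TUA1 one of -0.41 ± 0.20 (adjusted p = 0.315) and ACT12 one of 0.13 ± 0.20 (adjusted p = 0.796), in a comparison that called 5.27% of tested probe sets. For PLIM2a this average, and the settings in which it passed, take in the bicellular and PMII groups, where only WT PMII replicate 2 exceeded the low-signal limit. The average passed in 3 of 22 settings, among them the replicate number as a block, given below. PLIM2a passed without ms35 bicellular replicate 2 (adjusted p = 0.0332) and, in a setting chosen after seeing the data, without the 3 arrays of highest GAPDH ratio (log2 difference -2.09, adjusted p = 0.0196).

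At labelled PMI, where the signals were highest, PLIM2a and TUA1 did not overlap between the genotypes, both lower in ms35, and 45.3% of tested probe sets did not overlap either. The log2 difference there was -2.04 ± 0.91 for PLIM2a (limma adjusted p = 0.332), -0.83 ± 0.35 for TUA1 (adjusted p = 0.306) and -0.37 ± 0.34 for ACT12 (adjusted p = 0.7), while 2.03% of tested probe sets were called. None of the 5 late pollen markers passed between the genotypes at PMI. Their mean signals in ms35 PMI against WT PMI were 49.5 against 82.7 for ANX1 and 4.88 against 44.9 for ANX2, both receptor kinases of the pollen tube. For the MADS-box genes they were 57.1 against 74.7 for AGL65, 178 against 203 for AGL66 and 328 against 273 for AGL104, so AGL104 stood higher in ms35. The MGH3 signals of the 2 groups, given above, did not overlap. The part of these markers in the differences was not tested.

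At the bicellular stage the log2 differences were 0.41 ± 0.34 for ACT12 (limma adjusted p = 0.764), -0.69 ± 0.91 for PLIM2a (adjusted p = 0.875) and -0.36 ± 0.35 for TUA1 (adjusted p = 0.815), with 1.77% of tested probe sets called. At labelled PMII they were 0.35 ± 0.34 for ACT12 (adjusted p = 0.78), -2.19 ± 0.91 for PLIM2a (adjusted p = 0.394) and -0.05 ± 0.35 for TUA1 (adjusted p = 0.98), with 0.948% called. PLIM2a signals at PMII were below the limit on both ms35 arrays and on WT PMII replicate 1, so that difference rests on WT PMII replicate 2. The test of whether the genotype difference varied with stage, an F test in limma, gave adjusted p = 0.763 for ACT12, 0.849 for PLIM2a and 0.801 for TUA1, and called 0.194% of tested probe sets.

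The mean signals of the 3 genes were each highest at labelled PMI, but their replicates did not all deviate in the same direction. Over the 12 arrays, log2 signals of PLIM2a and TUA1 correlated with r = 0.79 (rho 0.57), ACT12 and PLIM2a with 0.66 (rho 0.56) and ACT12 and TUA1 with 0.59 (rho 0.49), as a description of arrays that share stage and genotype. Within the 6 groups, the difference between replicate 2 and replicate 1 had the same sign for ACT12 and PLIM2a in 2 groups, for ACT12 and TUA1 in 1 and for PLIM2a and TUA1 in 3. Both PLIM2a arrays lay under the low-signal limit in ms35 bicellular, ms35 PMII and WT bicellular, so its signs there come from near-background values. In both PMI groups, where both PLIM2a arrays exceeded the limit, replicate 2 was higher than replicate 1 for PLIM2a and TUA1. For ACT12 it was lower in both.

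Other genes of the same machinery were taken from 9 lists of actins, LIM domain proteins, tubulins, actin-binding proteins and myosins. Besides the 3 genes these lists held 66, of which 19 had a named probe set, and all 19 were tested. At labelled PMII, 7 were called lower and 1 higher than at PMI in ms35. Of all tested probe sets 9.62% were called lower there and 11.7% higher. In WT 8 were called lower and 1 higher, against 11.9% and 17% of all tested probe sets. The median log2 difference over the 19 was -0.53 in both genotypes, against medians of 0.09 in ms35 and 0.19 in WT over all tested probe sets. The genes of the profilin and actin depolymerizing factor lists had no named probe set and were not analysed here.

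ACT11, another reproductive actin, had 260 and 340 in ms35 PMII against 462 and 495 in ms35 PMI, and 215 and 339 in WT PMII against 811 and 577 in WT PMI. It fell by 1.33 ± 0.28 in WT between PMII and PMI (limma adjusted p = 0.00436), and its log2 difference in ms35 was -0.68 ± 0.28 (adjusted p = 0.109). The 2 actins thus both fell in WT. Whether they differ from each other in ms35 was not tested.

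PLIM2b, the other pollen LIM protein with a named probe set, had 79.7 and 115 in ms35 PMII against 772 and 839 in ms35 PMI. In WT it had 76.2 and 143 at PMII against 991 and 1093 at PMI. It fell by 3.04 ± 0.39 in ms35 (limma adjusted p = 0.000508) and fell by 3.29 ± 0.39 in WT (adjusted p = 0.000156), and both calls held under all 23 settings. Its ms35 PMI arrays agreed closely with each other where those of PLIM2a differed severalfold. WLIM1, WLIM2a and WLIM2b, LIM proteins known from many tissues, passed in no contrast, and WLIM2b kept a mean signal between 467 and 587 in every group.

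Among the tubulins, the beta tubulin TUB1 was lower at PMII than at PMI in both genotypes. Its log2 differences were -2.38 ± 0.26 in ms35 (limma adjusted p = 0.000214) and -2.39 ± 0.26 in WT (adjusted p = 8.33e-05). Its signals were 72.4 and 99.1 in ms35 PMII against 445 and 458 in ms35 PMI, and 72.1 and 67.0 in WT PMII against 405 and 345 in WT PMI. TUB9, also a beta tubulin, also fell, with -0.55 ± 0.16 in ms35 (adjusted p = 0.0307) and -0.66 ± 0.16 in WT (adjusted p = 0.00962). The ms35 call of TUB9 was lost in 7 of 23 settings, among them without any of the 4 arrays compared (adjusted p up to 0.175 without ms35 PMII replicate 1). The WT call was lost without WT PMI replicate 2 (adjusted p = 0.0544) or WT PMII replicate 1 (adjusted p = 0.0552). TUB5 passed in no contrast, nor did TUA6, the other alpha tubulin with a named probe set, whose mean signals lay between 1127 and 1626 and whose PMII minus PMI difference in WT was -0.53 (adjusted p = 0.0522).

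TUB6 was the only one of the 19 called between the genotypes, where 5.27% of all tested probe sets were called on average and 1.77% at the bicellular stage; without WT PMII replicate 1, a further gene passed on average. At the bicellular stage this beta tubulin had 235 and 234 in ms35 against 673 and 881 in WT. It was lower in ms35 by 1.70 ± 0.19 (limma adjusted p = 0.000419). Averaged over the stages it was lower in ms35 by 0.97 ± 0.11 (adjusted p = 0.000193), and both calls held under every setting tried, 23 and 22 in number. In WT its bicellular arrays also stood above the PMI arrays (384 and 463), with a rise of 0.87 ± 0.19 (adjusted p = 0.00856), so its pattern over stages was unlike that of TUA1. The endothecium and secondary wall markers with a probe set, 4 of 10, summed to 197 to 222 in ms35 bicellular and 1223 to 1465 in WT bicellular; their part in the TUB6 difference was not tested.

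The myosins, motors that move along actin filaments, had 3 members with a named probe set, of 8 listed. XIC, XIE and XIJ were lower at PMII than at PMI in both genotypes. These comparisons called 9.62% of all tested probe sets lower in ms35 and 11.9% in WT. XIC had log2 differences of -3.08 ± 0.50 in ms35 (limma adjusted p = 0.00161) and -2.89 ± 0.50 in WT (adjusted p = 0.00144). XIJ had -2.45 ± 0.31 in ms35 (adjusted p = 0.000484) and -2.22 ± 0.31 in WT (adjusted p = 0.000417). XIE had -1.75 ± 0.35 in ms35 (adjusted p = 0.00489), a call lost without ms35 PMII replicate 1 (adjusted p = 0.0561), and -2.23 ± 0.35 in WT (adjusted p = 0.000852). XIC had 36.0 and 76.5 in ms35 PMII against 539 and 398 in ms35 PMI, and 51.6 and 81.6 in WT PMII against 504 and 489 in WT PMI.

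The remaining genes on the lists are named by locus, as in the gene annotation, with the symbol under which they were listed. AT2G01330 (AIP1-1) was lower at PMII than at PMI. Its log2 differences were -2.78 ± 0.41 in ms35 (limma adjusted p = 0.000983) and -2.43 ± 0.41 in WT (adjusted p = 0.00121). AT5G55400 (FIM4, from the list of fimbrins and villins) was higher by 0.76 ± 0.23 in ms35 (adjusted p = 0.032) and 0.90 ± 0.23 in WT (adjusted p = 0.0112). The ms35 call of AT5G55400 was lost in 8 of 23 settings, among them median centring (adjusted p = 0.0582) and leaving out any of the 4 arrays compared (adjusted p up to 0.151 without ms35 PMII replicate 1). The WT call was lost without WT PMI replicate 2 (adjusted p = 0.0939) or WT PMII replicate 1 (adjusted p = 0.0881). AT3G18060 (AIP1-2), AT5G48460 (FIM2) and AT2G04750 (FIM3) passed in no contrast.

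**Figure D3:**
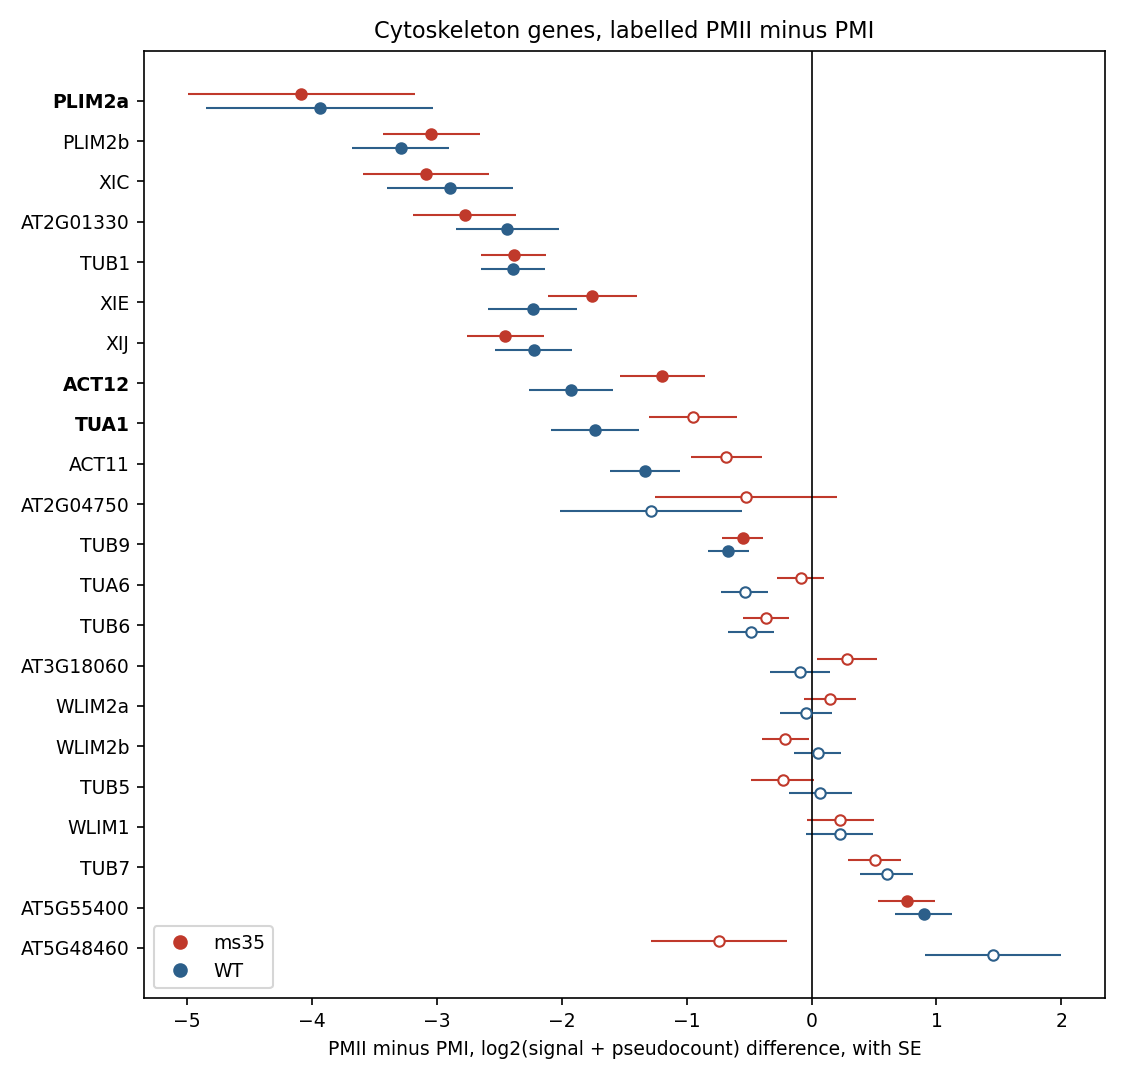
Difference in log2(signal + 2.23) between labelled PMII and labelled PMI for ACT12, PLIM2a, TUA1 (bold) and the 19 other listed cytoskeleton genes, in ms35 (red, upper) and WT (blue, lower). Points are limma estimates with SE bars, filled where the adjusted p is under 0.05. The PLIM2a estimates rest on PMII arrays of which 3 of 4 lie under the low-signal limit, so their place among the other genes is not fixed, and AT5G55400 is the only gene with a filled point above 0 in either genotype.

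Between the bicellular stage and PMI the same 19 genes gave no call in ms35, where 2.64% of all tested probe sets were called, with a median log2 difference of -0.18. In WT they gave 3 rises and 6 falls, where 10.8% of all tested probe sets rose and 7.29% fell, with a median of -0.06. The falls in WT were PLIM2b (-2.34 ± 0.39, limma adjusted p = 0.0024), XIC (-2.26 ± 0.50, adjusted p = 0.00983), AT2G01330 (-1.91 ± 0.41, adjusted p = 0.00839), XIJ (-1.54 ± 0.31, adjusted p = 0.00597), TUB1 (-1.097 ± 0.26, adjusted p = 0.0125) and ACT11 (-0.92 ± 0.28, adjusted p = 0.0401). TUB6, TUB7 and AT5G55400 rose. Of 23 settings, 8 lost the ACT11 call, 7 that of AT5G55400 and 6 that of TUB7. The count of 9 in WT dropped to 1 without WT bicellular replicate 2, to 3 without WT PMI replicate 1 and to 5 without WT PMI replicate 2. In ms35 it reached 3 without ms35 bicellular replicate 2, in which PLIM2b had 513 against 197 in replicate 1.

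The genes whose log2 signal followed each of the 3 most closely over the 12 arrays were sought among tested probe sets with 1 gene. For PLIM2a these were AT5G39880 (r = 0.984), RALFL26 (0.981), GH9A4 (0.966), AT5G54780 (0.966) and AT5G26700 (0.965). RALFL26 belongs to the RALF family of secreted peptides and GH9A4 to a family of endoglucanases. RALFL26 and AT5G39880 shared the uneven replicates of PLIM2a, as the choice by correlation favours. RALFL26 had 18.3 and 166 in ms35 PMI and 8.09 and 49.6 in WT PMII. AT5G39880 had 65.1 and 475 in ms35 PMI and 2.93 and 56.7 in WT PMII.

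For ACT12 the 5 genes were AT3G53370, AT5G18850, AT4G32470, AT4G20880 and AT2G04675, with r between 0.967 and 0.975. For TUA1 they were AT5G10660, AT2G47340, AT4G01610, AT1G58120 and AT2G28130, with r between 0.915 and 0.934. The lists changed with the measure of likeness: with Spearman's rho 2 of the 5 remained for ACT12, 2 for PLIM2a and 1 for TUA1, and with the 6 group means 0, 1 and 2 remained in that order. No gene was among the 5 of more than 1 of the 3 genes.

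**Figure D4:**
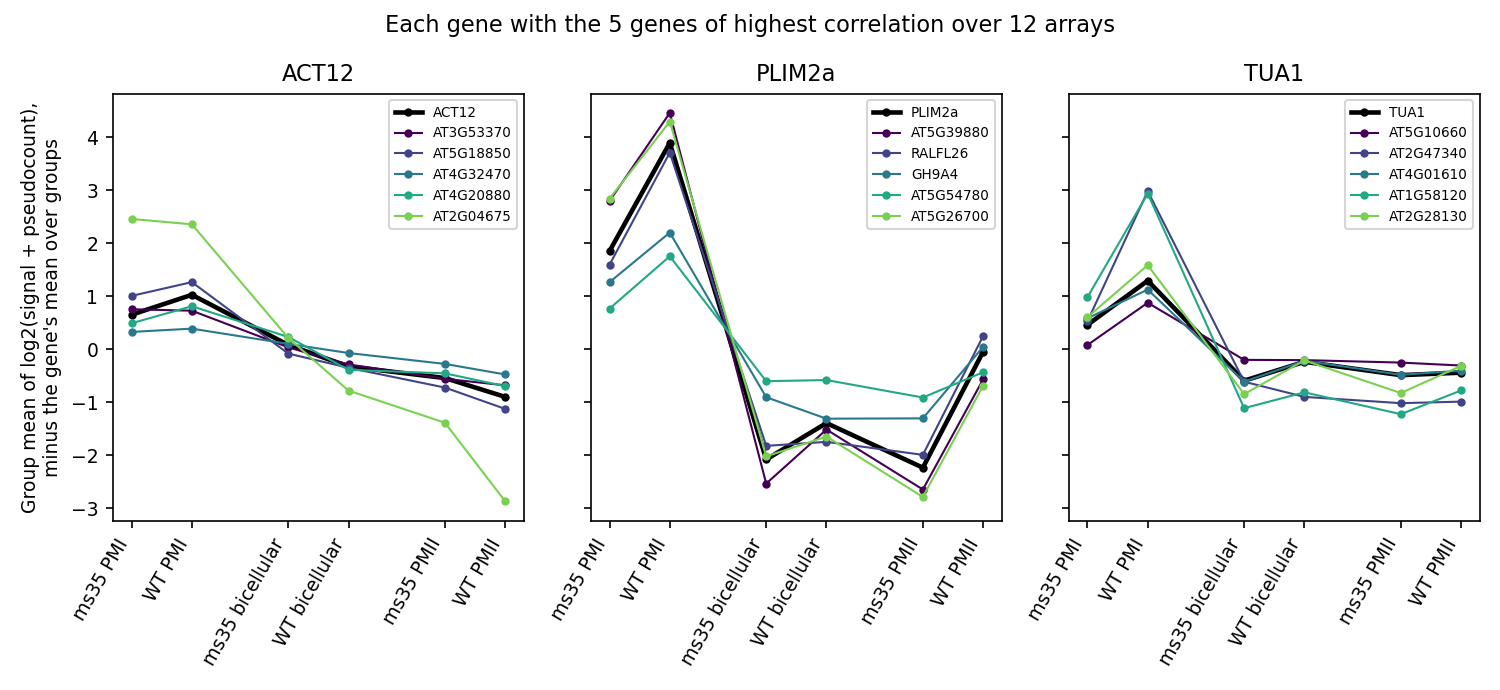
Group means of log2(signal + 2.23), minus each gene's mean over the 6 groups, for ACT12, PLIM2a and TUA1 (black) with the 5 genes of highest correlation over the 12 arrays. The x axis gives the groups by labelled stage, ms35 then WT, and the lines join groups for reading only. The PLIM2a and TUA1 sets peak in WT PMI, while the ACT12 set includes genes as high in ms35 PMI as in WT PMI.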

How the data were processed

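RNA of 12 anther samples was measured on ATH1 arrays. The authors deposited 1 linear intensity, the signal, per probe set, made with MAS5 and GCOS per the submitters' processing notes; their versions were not given in the sources used here.

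Of 22810 probe sets 64 controls were left out. The pseudocount of 2.23 was the 10th percentile of all values and the limit of 25.5 the 40th; log2 differences of dim genes are understated by it. Genes were named from the annotation given with the series, which gave 1 gene to 13513 probe sets and several to 503; 13436 of the single-gene probe sets matched a gene table of assembly TAIR10.1. No sequence or coordinate was used here.

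The model in limma 3.58.1 (R 4.3.3) held the means of the 6 groups over all 12 arrays, with 6 residual degrees of freedom, variances moderated along a trend with intensity and p-values adjusted by Benjamini-Hochberg over 16464 probe sets. It was tested on simulated data, and precision is limited by the number of arrays. The members and the lists were chosen with earlier results of these data known, so no list was tested. Named genes were the 3 genes, the members of the cytoskeleton lists with a probe set, the 5 genes of highest and the 2 of lowest correlation with each of the 3, and markers as sums or where near background; MGH3, AMS and SHT are named as the only listed markers of their kind with a probe set. The alternatives tried were median centring, quantile normalization, a replicate block, pseudocounts of 0.5 and 16, no filter or a stricter one, no variance trend, array weights, only the arrays compared, and leaving out each array. Same-numbered replicates of different groups deviated together weakly at most: 15 pairs of groups correlated between -0.13 and 0.18, with 4 over 0.1. The labels do not say what the replicate number stands for.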

Additional observations from a re-analysis of the deposited data

How the results depend on the processing

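Over the alternatives tried, 243 of 251 values of ACT12, 229 of 251 of PLIM2a and 239 of 251 of TUA1 kept their direction and their side of the threshold. The cause of the changes below was not tested.

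The ACT12 difference of PMII minus PMI in ms35 (-1.19) missed the threshold without a variance trend. The PLIM2a difference of bicellular minus PMI in ms35 (-3.93) missed it with no filter (adjusted p = 0.0574), no variance trend (0.119), array weights (0.0575), only the arrays compared (0.126) and a pseudocount of 0.5 (-4.47, adjusted p = 0.0564). With the replicate number as a block the averaged genotype difference of PLIM2a (-1.64) passed (adjusted p = 0.0433), and no other call of the 3 genes changed. The block moved the calls over all probe sets from 434 to 653 for bicellular minus PMI in ms35 and from 68 to 181 for PMII minus bicellular in ms35.

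Leaving out the 3 arrays of highest GAPDH ratio, a setting chosen after seeing the data, gave -2.09 for the averaged genotype difference of PLIM2a and turned the sign of 4 values that had not passed: PLIM2a in PMII minus bicellular in ms35 (1.09), and TUA1 in ms35 minus WT at bicellular (0.0103), in PMII minus bicellular in ms35 (-0.26) and in the same step in WT (0.14).

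With single arrays left out, ACT12 ran from -0.000598 to 0.26 for the averaged genotype difference, from -0.0326 to 0.74 at PMII, from -1.52 to -0.87 for PMII minus PMI in ms35 and from -1.54 to -1.16 for bicellular minus PMI in WT. PLIM2a ran from -2.05 to -1.22 for the averaged genotype difference, from -1.93 to 0.56 at bicellular, from -5.17 to -2.68 for bicellular minus PMI in ms35, from -1.40 to 1.09 for PMII minus bicellular in ms35, and for PMII minus PMI from -5.19 to -2.97 in ms35 and -4.94 to -2.93 in WT. TUA1 ran from -0.72 to 0.0103 for the genotype difference at bicellular and -0.39 to 0.29 at PMII, from -0.26 to 0.47 for PMII minus bicellular in ms35 and -0.55 to 0.14 in WT, from -1.37 to -0.53 for PMII minus PMI in ms35, and from -1.88 to -1.18 for bicellular minus PMI in WT.

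Of the 5 genes most like each, 2 remained for ACT12, 2 for PLIM2a and 1 for TUA1 with Spearman's rho, and 0, 1 and 2 with group means. With an array left out, 2 to 5 remained for ACT12 and PLIM2a and 0 to 5 for TUA1.

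The number of probe sets called, behind the shares given above, ranged over the settings between 554 and 989 (868 as reported) for the averaged genotype difference, 127 and 390 (335) at PMI, 97 and 338 (291) at bicellular and 45 and 185 (156) at PMII. It ranged between 1 and 818 (434) for bicellular minus PMI, 0 and 579 (68) for PMII minus bicellular and 1375 and 3679 (3505) for PMII minus PMI in ms35. In WT it ranged between 1056 and 3614 (2977), 21 and 412 (256) and 3113 and 5071 (4771) for these steps, and for the interaction between 0 and 70 (32). Among the 19 other cytoskeleton genes the calls ranged between 5 and 8 (8 as reported) for PMII minus PMI in ms35, 8 and 11 (9) in WT, 0 and 5 (1) for PMII minus bicellular in ms35 and 0 and 3 (2) in WT. With 2 arrays a group, and PLIM2a near background outside PMI, smaller differences could not be resolved.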

Other observations

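The controls printed on the array include an actin probe set read at its 3' end, whose gene is not named in the files. Its signal was 2047 and 1834 in ms35 PMII against 1284 and 1017 in ms35 PMI, and 1913 and 1521 in WT PMII against 1062 and 1340 in WT PMI. At this end the PMII arrays lay above the PMI arrays in both genotypes, while ACT12 and ACT11 had the higher signal at PMI. The same control read at its 5' end had 515 and 570 in ms35 PMII against 446 and 295 in ms35 PMI, and 596 and 325 in WT PMII against 344 and 329 in WT PMI, so the WT groups overlapped there. The control was not part of the fit.

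The genes that ran most against each of the 3 over the 12 arrays were AT2G22030 (r = -0.956) and AT2G25100 (-0.954) for ACT12, AT2G07140 (-0.979) and AT1G73940 (-0.977) for PLIM2a, and ALDH22A1, an aldehyde dehydrogenase (-0.959), and AT3G63400 (-0.948) for TUA1.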
